A study of Mus musculus with 6 samples.

Results

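Mechanosensing channels and the genes of the YAP/TEAD pathway were followed in sorted Gli1+ and Gli1- cartilage cells. The set holds 10 genes of the 54532 in the count table, each found by its symbol. They are the channel genes *Piezo1*, *Piezo2* and *Trpv4*, the coactivator and TEAD genes *Yap1*, *Wwtr1*, *Tead1* and *Tead3*, and the target and feedback genes *Lats2*, *Amotl2* and *Ankrd1*. All 10 passed the filter on low counts, which kept 14801 genes. RNA was sequenced from 3 Gli1+ and 3 Gli1- populations of C57BL/6 mice aged 1 month and harvested 24 h after tamoxifen (TAM). Every mouse carried *Gli1-CreERT2* and a tdTomato reporter, so both populations shared these alleles and the TAM. The recombinase is made from *Gli1*, and both populations were sorted as CD45-, CD31- and Ter119-, with Gli1+ cells being tdTomato+ and Gli1- cells tdTomato-. A Gli1- cell may therefore also be one in which TAM did not act. According to the paper the cells were digested from costal cartilage, with a last digestion overnight, whereas the labels name the growth plate.

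Cells sense load partly through ion channels that open when the membrane is stretched. PIEZO1 and PIEZO2 are such channels, and TRPV4 is a calcium channel opened by swelling and strain. All of them are known to take part in the response of chondrocytes to load. Tension on the cytoskeleton also acts on YAP (*Yap1*) and TAZ (*Wwtr1*), coactivators that bind DNA through TEAD proteins. The Hippo kinases LATS1 and LATS2 phosphorylate YAP and TAZ and keep them out of the nucleus. *Lats2* and *Amotl2*, whose products restrain YAP, are themselves induced by YAP and TEAD, as is *Ankrd1*.

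The libraries held 17114101 to 18602482 counts, so counting error was small for all of the genes except *Ankrd1*, and *Tead3* in 1 library. *Gli1*, whose locus drives the label, was at 4.55, 6.39 and 7.98 CPM (counts relative to the library total, after TMM scaling for composition) in Gli1+ replicates 1, 2 and 3. It was at 0.724, 1.26 and 2.43 CPM in Gli1- replicates 1, 2 and 3, and the populations did not overlap (log2FC of Gli1+ over Gli1- 2.09, standard error 0.68). Gli1+ replicate 1 stood apart with 15000 genes detected, against 20666 to 23360 in the other 5 libraries. It was also tilted towards long genes. Relative to the other 2 Gli1+ libraries, the median gene under 2 kb was lower by 1.32 on the log2 scale (log2 difference -1.32) and the median gene over 10 kb was higher by 1.04. Both libraries numbered 2 were tilted the other way, with medians of 0.99 under 2 kb and -0.76 over 10 kb relative to the other 4 libraries. Leukocyte markers, led by *S100a9*, summed to 3487 CPM in Gli1- replicate 1 and to 14.4 to 84.6 CPM in the others. Chondrocyte markers, led by *Col2a1*, were high in all libraries, at 6933 to 30820 CPM in sum, with 3 of 10 genes having a log2FC above 0.

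Promoter sequence from RefSeq (GRCm38.p6) was found for 8 of the 10 genes, in 12 windows of 300 bases from 250 before the start to 50 after it. TEAD proteins bind the core CATTCC, which reads GGAATG on the other strand. These letters were searched on both strands and occurred in 8 of the 12 windows, against 14.7% of all 32851 windows in the table. By gene they occurred at 6 of the 8, where a gene could have more than 1 window, so the 14.7% does not apply to this count. Windows of a gene can overlap, and the set was chosen with known YAP/TEAD targets in it. The counts are therefore no test of enrichment. Both *Wwtr1* windows held the same copy. The sequences below show where the letters lie at the target genes, with each copy in capitals. For *Ankrd1* they are the 250 bases before the start (chr19:36119845-36120094, minus strand), with copies beginning 210 and 123 bases upstream. For *Amotl2* they are the 250 bases before a start that lies inside the gene as the count table gives it (chr9:102717554-102717803, plus strand), with 1 copy beginning 65 bases upstream. For *Lats2* they are 30 bases around a start inside the gene (chr14:57746102-57746131, minus strand), with 1 copy beginning 4 bases downstream. A second *Lats2* window held no copy, and neither did those of *Piezo1* and *Trpv4*. *Yap1*, both overlapping windows of *Wwtr1* and 2 of the 3 windows of *Tead3* held at least 1. A match of these letters is a description and not a bound site.
Ankrd1: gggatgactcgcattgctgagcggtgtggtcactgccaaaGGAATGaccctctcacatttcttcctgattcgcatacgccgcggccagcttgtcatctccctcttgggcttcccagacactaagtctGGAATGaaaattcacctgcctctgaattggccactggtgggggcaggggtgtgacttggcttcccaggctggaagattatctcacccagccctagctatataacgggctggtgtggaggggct
Amotl2: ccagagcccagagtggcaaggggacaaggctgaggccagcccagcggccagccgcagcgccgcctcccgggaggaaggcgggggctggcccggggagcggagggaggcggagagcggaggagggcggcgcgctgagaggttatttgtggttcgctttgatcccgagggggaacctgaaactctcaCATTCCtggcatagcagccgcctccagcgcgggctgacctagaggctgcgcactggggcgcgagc
Lats2: cgtgacgcccgtGGAATGccaacaatgtag

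Per length, the same 4 genes had the highest means in both populations. In Gli1+ cells *Trpv4* was at 101 ± 30.01, *Piezo1* at 94.7 ± 60.1, *Amotl2* at 91.7 ± 35.5 and *Wwtr1* at 78.4 ± 30.8 CPM per kb (SD, n = 3 each). In Gli1- cells *Wwtr1* led at 138 ± 63.0, followed by *Piezo1* at 92.3 ± 63.4, *Trpv4* at 79.4 ± 11.9 and *Amotl2* at 73.6 ± 30.2 CPM per kb (SD, n = 3 each). These 4 did not differ among themselves beyond their spread. Their single values overlapped with those of the next gene, *Tead1*, at 54.4 CPM per kb in Gli1+ replicate 1 and 21.2 in Gli1- replicate 3. *Piezo1* was at 26.2 in Gli1+ replicate 2 and 19.5 in Gli1- replicate 2, and *Wwtr1* at 51.8 in Gli1+ replicate 3. *Tead1* (27.2 ± 23.8 CPM per kb in Gli1+ and 15.1 ± 6.51 in Gli1- cells), *Yap1* (12.8 ± 2.71 and 15.4 ± 1.37) and *Lats2* (10.3 ± 5.03 and 6.51 ± 3.12) came next. In Gli1+ cells the values of these 3 overlapped from each to the next. In Gli1- cells, where *Yap1* stood first, *Lats2* lay below every value of *Yap1* but overlapped with *Tead1*. *Tead3*, *Piezo2* and *Ankrd1* were lowest, at 0.926 to 1.24 CPM per kb in Gli1+ and 0.321 to 2.56 in Gli1- cells, and only in Gli1- cells was *Ankrd1* below every value of *Tead3* and *Piezo2*. The TAZ gene thus stood above the YAP gene in each of the 6 libraries, the closest pair of values being 51.8 and 13.0 CPM per kb in Gli1+ replicate 3. *Piezo1* likewise stood above *Piezo2* in each library.

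**Figure D1:**
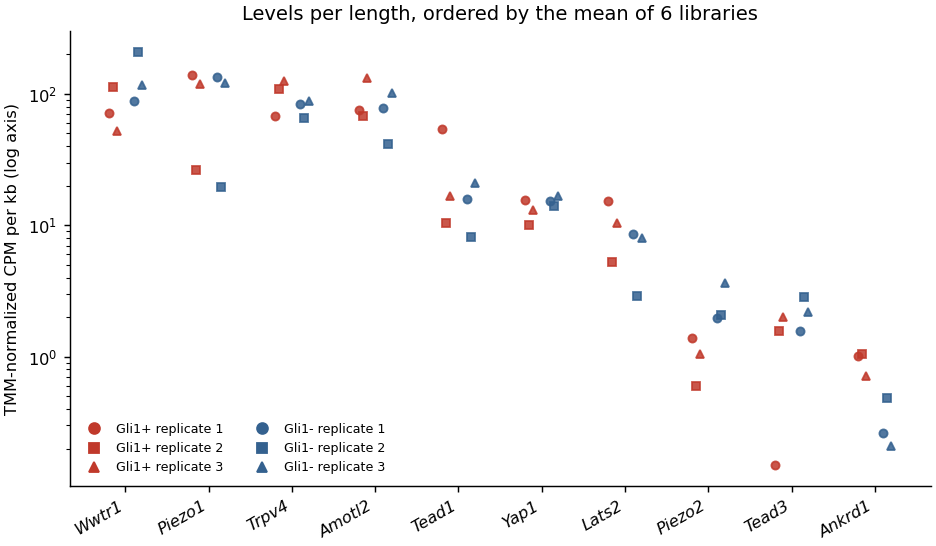
TMM-normalized CPM per kb of gene length (log axis) for the 10 genes, ordered by their mean over 6 libraries, with 1 point per library (red, Gli1+; blue, Gli1-; circle, square and triangle for replicates 1, 2 and 3). *Wwtr1*, *Piezo1*, *Trpv4* and *Amotl2* have the highest means, though single values overlap with *Tead1*, and *Ankrd1* has the lowest mean.

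The comparison of Gli1+ with Gli1- cells called none of the 10 genes. A call needed an adjusted p-value under 0.05 over all genes and a |log2FC| over 1, the thresholds of the study's methods. The quasi-likelihood test of edgeR called 0 of the 14801 genes tested (0%), with 514 (3.47%) at an unadjusted p-value under 0.05. *Gli1*, whose locus drives the label, was not called either (log2FC 2.09, unadjusted p = 0.0152, same test). The lack of a call therefore does not show that a gene was equal in both populations. The paper does report differentially expressed genes between these cells, and the reason for this discrepancy was not tested. Of the 10 genes, only *Piezo2* reached an unadjusted p-value under 0.05, with lower values in Gli1+ cells (2.04% of all genes), and 0 did with higher values (1.43%). DESeq2 without a replicate block called 0 of the 10 (0.203% of all genes), and so did limma-voom. Libraries of the populations did not overlap for *Ankrd1*, where Gli1+ cells were higher (4.04% of all genes), and for *Piezo2*, where they were lower (4.45% of all genes, and 8.49% in either direction). The median log2FC of the 10 genes was 0.18 and that of all genes tested 0.001, with 6 genes above 0 (50.1% of all genes) and 4 below. Per the paper each mouse gave cells of both kinds, so differences within replicate numbers are given too. Deviations from the population mean correlated at 0.720 within number 2, 0.471 within number 3 and only 0.223 within number 1. Gli1+ replicate 1 correlated more with Gli1- replicate 3 (0.274), and no source used here says that a number marks a mouse. Within numbers, 5 of the 10 genes had 1 direction in 3 of 3 pairs (37.4% of all genes). With the replicate number as a block, 3 of the 10 were at an unadjusted p-value under 0.05 in edgeR (8.61% of all genes), 3 in limma-voom (11.1%) and 4 in DESeq2 (11.7%). In edgeR these were *Piezo2* and *Wwtr1*, lower in Gli1+ cells (5.25% of all genes), and *Lats2*, higher (3.36%). With the length trend of each library removed there was 1 (4.68% of all genes), and 3 when the block was added (11%). Leaving out both libraries of replicate 1 under the block gave 7 (25.6%) and called 2 of the 10 (7.83%), and using no filter on low counts called 0 (0.936%). The labels name separate samples, but the p-values measure only the spread between these 6 libraries.

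**Figure D2:**
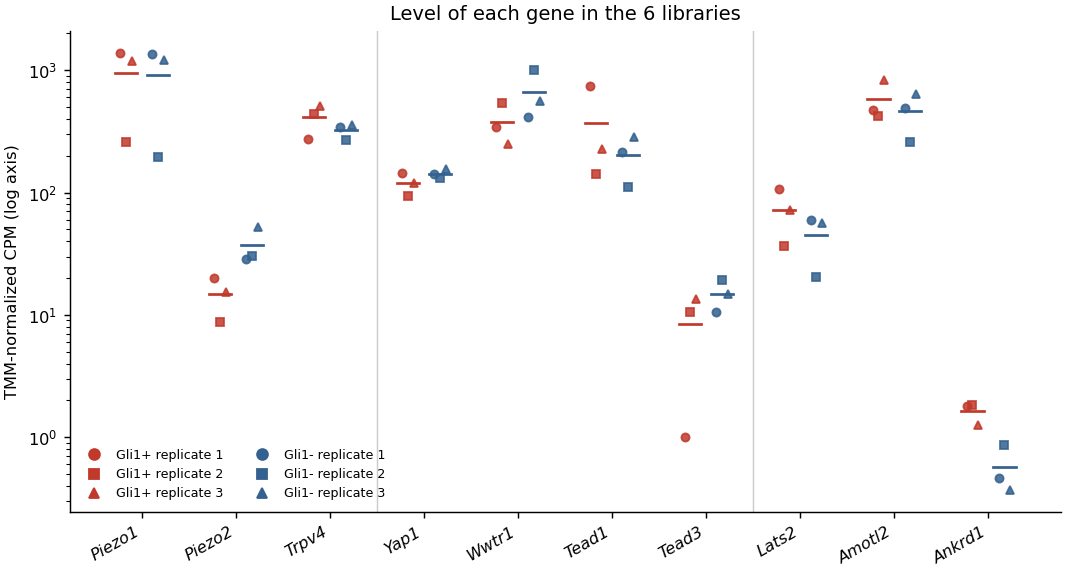
TMM-normalized CPM (log axis) of each gene in the 6 libraries, with lines at the mean of each population (red, Gli1+; blue, Gli1-; circle, square and triangle for replicates 1, 2 and 3). Populations are apart for *Piezo2* and *Ankrd1*, and both squares of *Piezo1* lie far below its other points.

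Among the channels, *Piezo2* differed most. *Piezo2* (ENSMUSG00000041482, chromosome 18, 63010213 to 63387183, minus strand, GRCm38) was at 20.0, 8.72 and 15.4 CPM in Gli1+ replicates 1, 2 and 3, and at 28.8, 30.4 and 52.6 CPM in Gli1- replicates 1, 2 and 3. Every Gli1+ library lay below every Gli1- library, and Gli1+ cells had the lower value in 3 of 3 pairs. The mean was 14.7 ± 5.70 in Gli1+ and 37.2 ± 13.3 CPM in Gli1- cells (SD, n = 3 each), 2.53-fold lower in Gli1+ cells. The quasi-likelihood test of edgeR gave a log2FC of -1.34 (standard error 0.48) with an unadjusted p = 0.0235 and an adjusted p = 0.9999. The 2-sided exact permutation test gave p = 0.1, the smallest that 3 libraries against 3 allow. With the replicate number as a block, edgeR gave a log2FC of -1.37 (adjusted p = 0.446). DESeq2 with the block called *Piezo2* at -1.38 (adjusted p = 0.0496, against 3.28e-12 to 1 over all alternatives), in a fit that called 2.89% of all genes. Unadjusted, edgeR's p was 0.0695 without Gli1+ replicate 2 (log2FC -1.09), 0.06 without Gli1+ replicate 3 (log2FC -1.38) and 0.112 without Gli1- replicate 3 (log2FC -1.01).

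Markers of other cells went in the same direction as *Piezo2*, as did 7 of 10 chondrocyte markers (median log2FC -0.30). Endothelial markers, which the CD31 gate should have removed, summed to 14.6 to 20.7 in Gli1+ and 46.4 to 89.1 CPM in Gli1- cells, with all 6 tested genes of the 10 listed below 0. *Erg*, which chondrocytes also express, was at 11.4 ± 3.82 and 45.9 ± 30.4 CPM, and *Pecam1*, the CD31 gene, was at 1.25 ± 0.499 and 3.57 ± 2.17 CPM (SD, n = 3 each). On the fibroblast and perichondrium list, led by *Dcn*, 10 of 10 genes were below 0 (median -1.25), with summed levels of 1853 to 4237 in Gli1+ and 2333 to 10320 CPM in Gli1- cells. Schwann cell markers, considered because *Piezo2* is known from sensory nerves and their endings, summed to 26.1 to 62.4 and 45.5 to 71.1 CPM, with 5 of 5 tested genes below 0. *Mbp* was the most abundant of them. The part of these cells in the *Piezo2* difference was not tested. In bulk RNA, fewer cells of a type and less RNA per cell cannot be told apart.

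*Piezo1* (ENSMUSG00000014444, chromosome 8, 122481698 to 122551329, minus strand) was uneven between libraries. It was at 1380, 260.3 and 1182 CPM in Gli1+ replicates 1, 2 and 3, and at 1346, 194 and 1212 CPM in Gli1- replicates 1, 2 and 3. The low values were those of the libraries numbered 2 in both populations, and within a number the populations lay close together. The log2FC was 0.036 with a standard error of 0.84, and within numbers 1, 2 and 3 the log2 differences were 0.04, 0.43 and -0.04. With the replicate block the log2FC was 0.14 and its standard error 0.26. Without Gli1+ replicate 1 the log2FC was -0.38, and without Gli1- replicate 2 it was -0.48. *Ctu2* overlaps the end of *Piezo1* on the other strand, with at most 558 counts in a library against at least 2921 of *Piezo1*.

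*Trpv4* (ENSMUSG00000014158, chromosome 5, 114622152 to 114658421, minus strand) varied less. It was at 276, 442 and 514 CPM in Gli1+ replicates 1, 2 and 3, and at 344, 268 and 359 CPM in Gli1- replicates 1, 2 and 3. Gli1+ cells were higher in numbers 2 and 3 and lower in number 1, and the populations overlapped. The log2FC was 0.34 (standard error 0.43, unadjusted p = 0.448, edgeR's quasi-likelihood test). Leaving out single libraries gave 0.14 (without Gli1+ replicate 3) to 0.54 (without Gli1+ replicate 1), and 0.20 without Gli1- replicate 2.

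Of the coactivators, *Wwtr1* (ENSMUSG00000027803, chromosome 3, 57455649 to 57575910, minus strand) was at 340.4, 536 and 247 CPM in Gli1+ replicates 1, 2 and 3. In Gli1- replicates 1, 2 and 3 it was at 418, 997 and 563 CPM. Within pairs it was lower in Gli1+ cells 3 of 3 times, a direction shared by 19.8% of all genes, but the populations overlapped, both libraries numbered 2 being high. The log2FC was -0.82 (standard error 0.53, unadjusted p = 0.159, edgeR's quasi-likelihood test). With the replicate block it was -0.79 (standard error 0.29, unadjusted p = 0.0378, adjusted p = 0.555 from edgeR, with 1.4e-05 to 1 over all alternatives). Leaving out single libraries gave -1.18 (without Gli1+ replicate 2) to -0.42 (without Gli1- replicate 2).

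*Yap1* (ENSMUSG00000053110, chromosome 9, 7931999 to 8004596, minus strand) was the steadiest of the 10 genes, its log2 CPM lying between -0.47 and 0.27 relative to its mean over the 6 libraries. It was at 143, 93.1 and 121 CPM in Gli1+ and at 141, 131 and 156 CPM in Gli1- replicates 1, 2 and 3. The populations overlapped, and the log2FC was -0.26 (standard error 0.37, unadjusted p = 0.5, edgeR's quasi-likelihood test).

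The TEAD genes went in opposite directions in Gli1+ replicate 1. *Tead1* (ENSMUSG00000055320, chromosome 7, 112679318 to 112906807, plus strand) was at 739 CPM there, against 141 and 229 CPM in Gli1+ replicates 2 and 3 and 215, 111 and 287 CPM in Gli1- replicates 1, 2 and 3. *Tead3* (ENSMUSG00000002249, chromosome 17, 28331671 to 28350817, minus strand) was at 1.00 CPM in that library, from 19 counts, against 10.5 and 13.6 CPM in Gli1+ replicates 2 and 3. In Gli1- replicates 1, 2 and 3 *Tead3* was at 10.5, 19.2 and 14.7 CPM. Both differences between the populations rested largely on this library. The log2FC of *Tead1* was 0.85 (standard error 0.69) with it and -0.17 (standard error 0.52) without it. That of *Tead3* was -0.82 (standard error 0.82) with it and -0.32 without it. With the replicate block and all 6 libraries, edgeR gave *Tead3* a log2FC of -1.35 (standard error 0.71, unadjusted p = 0.111). DESeq2 with the block gave -1.38 (unadjusted p = 0.0373, adjusted p = 0.34). *Tead3* had the lower value in Gli1+ cells in 3 of 3 pairs, though by only 0.12 on the log2 scale in number 3 (log2 difference -0.12). *Tead1*, at 13.6 kb, is one of the longest of the 10 genes, and with the length trend of each library removed its log2FC was 0.45 and that of *Tead3* -0.81. The unadjusted p-values of *Tead1* and *Tead3* were 0.25 and 0.346 (edgeR's quasi-likelihood test).

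The 3 target and feedback genes all had a log2FC above 0 (50.1% of all genes), with a median of 0.66. *Lats2* (ENSMUSG00000021959, chromosome 14, 57689662 to 57758388, minus strand) was at 107, 36.6 and 72.0 CPM in Gli1+ replicates 1, 2 and 3, and at 59.8, 20.4 and 56.0 CPM in Gli1- replicates 1, 2 and 3. The populations overlapped, the libraries numbered 2 being low in both, while within numbers Gli1+ cells were higher in 3 of 3 pairs (17.6% of all genes). The log2FC was 0.66 (standard error 0.56, unadjusted p = 0.273, edgeR's quasi-likelihood test). With the replicate block it was 0.68 with a standard error of 0.26 (unadjusted p = 0.0427, adjusted p = 0.568 from edgeR, with 0.0412 to 1 over all alternatives). Without Gli1+ replicate 1 it was 0.23, and without Gli1- replicate 2 it was 0.27.

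*Amotl2* (ENSMUSG00000032531, chromosome 9, 102716672 to 102733418, plus strand) was at 472, 424 and 833 CPM in Gli1+ replicates 1, 2 and 3, and at 491, 260.4 and 637 CPM in Gli1- replicates 1, 2 and 3. Gli1+ cells were higher in 2 of 3 pairs, and the populations overlapped. The log2FC from edgeR was 0.32 with a standard error of 0.52, and -0.053 without Gli1+ replicate 3.

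*Ankrd1* (ENSMUSG00000024803, chromosome 19, 36111965 to 36119844, minus strand) was the scarcest of the 10 genes. It had 34, 30 and 24 counts in Gli1+ replicates 1, 2 and 3, and 9, 13 and 7 counts in Gli1- replicates 1, 2 and 3. These correspond to 1.80, 1.84 and 1.26 CPM in Gli1+ and 0.465, 0.862 and 0.370 CPM in Gli1- cells. Every Gli1+ library lay above every Gli1- library, and Gli1+ cells were higher in 3 of 3 pairs. The mean was 1.63 ± 0.324 in Gli1+ and 0.566 ± 0.261 CPM in Gli1- cells (SD, n = 3 each), 2.88-fold higher in Gli1+ cells. The log2FC was 1.52 with a standard error of 0.82 (edgeR, unadjusted p = 0.1 and adjusted p = 0.9999), and the 2-sided exact permutation test gave p = 0.1. Leaving out single libraries gave 1.29 to 1.91. *Ankrd1* is also known from striated muscle. Skeletal muscle markers, led by *Tnnt3*, summed to 3.62 to 40.8 in Gli1+ and 6.35 to 35.6 CPM in Gli1- cells, with *Myh2* and *Myh4* at no more than 3 counts in any library. Their sum was 40.8 CPM in Gli1+ replicate 2 and 4.18 CPM in Gli1+ replicate 1, which had alike levels of *Ankrd1*. In Gli1- cells replicate 2 had the highest value of both. The part of muscle cells in the *Ankrd1* difference was not tested.

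**Figure D3:**
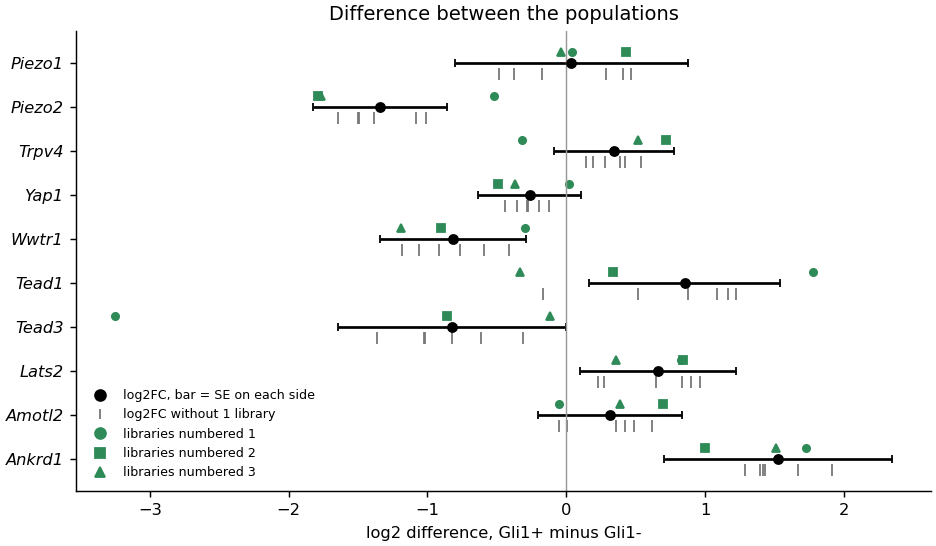
Difference between Gli1+ and Gli1- cells for each gene on the log2 scale, with the log2FC of edgeR and its standard error on each side (black), the log2FC with each library left out in turn (grey ticks) and the difference within each replicate number (green). *Piezo2*, *Wwtr1* and *Tead3* lie below 0 and *Lats2* and *Ankrd1* above 0 in all 3 numbers, and *Tead1* and *Tead3* spread widely at number 1.

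The other targets of YAP and TEAD had no common direction. Of 19 genes often used to score YAP/TAZ activity, 12 had a log2FC above 0 and 7 below, with a median of 0.27, and 0 were at an unadjusted p-value under 0.05. Leaving out Gli1+ replicate 1 gave a median of -0.096, Gli1- replicate 2 one of -0.043 and Gli1- replicate 1 one of 0.12. Most reads came from *Ccn2* and *Ccn1*, listed under their older names *Ctgf* and *Cyr61*, which encode secreted matricellular proteins. *Ccn2* was at 4492, 6451 and 11310 CPM in Gli1+ and 4246, 2710 and 5636 CPM in Gli1- replicates 1, 2 and 3, higher in Gli1+ cells in 3 of 3 pairs (log2FC 0.82, standard error 0.61). *Ccn1* was at 2609 ± 1066 and 1621 ± 104 CPM (SD, n = 3 each; log2FC 0.69, standard error 0.52). The tissue factor gene *F3* had a log2FC of 0.32 (standard error 0.66). *Gadd45a*, a growth arrest and stress gene, went the other way. It was at 30.3, 415 and 63.3 CPM in Gli1+ and 189, 1231 and 232 CPM in Gli1- replicates 1, 2 and 3, lower in Gli1+ cells in 3 of 3 pairs. Its log2FC was -1.70 (standard error 1.10), and with the replicate block -2.03 (standard error 0.32, adjusted p = 0.309 from edgeR). DESeq2 with the block called it (adjusted p = 3.34e-06), as did 2 of 19 alternatives in all, over which its log2FC lay between -3.57 and -0.33. *Tgfb2*, a TGF-beta ligand named after its values were seen, was at 486, 318 and 565 CPM in Gli1+ and 159, 241 and 290.2 CPM in Gli1- replicates 1, 2 and 3, with no overlap (log2FC 0.99, standard error 0.45, unadjusted p = 0.0596 from edgeR). On this list 2 of the 19 genes had all Gli1+ libraries higher (4.04% of all genes) and 1 had all lower (4.45%). With the replicate block, edgeR put 2 higher genes (3.36% of all genes) and 3 lower ones (5.25%) at an unadjusted p-value under 0.05.

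Genes of the response to dissociation went the same way as *Gadd45a*, with 0 of 10 at an unadjusted p-value under 0.05. These stress genes, led by the heat shock genes *Hspa1b* and *Hspa1a*, all had a log2FC below 0, with a median of -1.27. Their summed level was 1872 to 15710 in Gli1+ and 11170 to 33090 CPM in Gli1- cells, highest in number 2 within each population. *Gadd45a* was highest in the same libraries. The part of handling in these differences was not tested.

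Hippo kinases and adaptors other than *Lats2* and *Amotl2* had a median log2FC of 0.37, with 18 of 25 above 0 and 0 at an unadjusted p-value under 0.05. The direction depended on Gli1+ replicate 1, without which the median was -0.19, and without Gli1- replicate 2 it was 0.081. *Amotl1*, a relative of *Amotl2*, was at 349 ± 296 in Gli1+ and 216 ± 112 CPM in Gli1- cells. The kinase gene *Map4k4* was at 266 ± 125 and 269 ± 71.7, the LATS cofactor gene *Mob1a* at 228 ± 122 and 195 ± 81.7, and *Lats1* at 195 ± 126 and 146 ± 41.2 CPM (SD, n = 3 each). Among TEAD factors and cofactors, 4 of 6 were tested, 3 of them below 0, with a median log2FC of -0.21. The median was -0.78 without Gli1+ replicate 1, -0.42 without Gli1- replicate 2 and 0.022 without Gli1- replicate 1. *Vgll4*, a TEAD cofactor that competes with YAP, was at 60.8 ± 17.3 and 74.2 ± 5.86 CPM, *Tead4* at 13.5 ± 6.92 and 14.8 ± 8.78, *Tead2* at 0.593 ± 0.733 and 1.74 ± 0.643, and *Vgll3* at 1.17 ± 1.30 and 1.12 ± 0.499 CPM (SD, n = 3 each). *Vgll1* and *Vgll2* had 0 counts in all 6 libraries. Per length the TEAD genes ranked *Tead1*, *Tead4*, *Tead3* and *Tead2*, and *Tead4* (3.74 ± 1.92 CPM per kb in Gli1+ and 4.13 ± 2.44 in Gli1- cells) overlapped with *Tead3*.

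Of 27 other mechanosensitive channels, 19 were tested, 11 above 0 and 8 below, with a median log2FC of 0.065. Leaving out Gli1+ replicate 2 gave a median of 0.36 and Gli1- replicate 3 one of 0.41, and leaving out any of the others gave 0.032 to 0.13. The gap junction gene *Gja1*, which encodes a connexin, had the most reads. It was at 441, 439.6 and 549 CPM in Gli1+ and 294, 348 and 321 CPM in Gli1- replicates 1, 2 and 3, without overlap (log2FC 0.57, standard error 0.39). On this list 3 of the 19 tested genes had all Gli1+ libraries higher (4.04% of all genes) and 0 had all lower (4.45%). Within pairs 7 were higher in 3 of 3 (17.6% of all genes) and 1 lower (19.8%). The polycystin genes *Pkd2* and *Pkd1* and the channel kinase gene *Trpm7* had log2FC values of -0.19, -0.032 and 0.19, each smaller than its standard error. *Trpv2*, named after its values were seen, was at 26.8 CPM in Gli1- replicate 1 and at 0 to 1.66 CPM elsewhere. That library was also the one with *Ptprc*, the leukocyte gene for CD45, at 54.7 CPM, against 0.0525 to 1.10 CPM in the others. The part of leukocytes in the *Trpv2* value was not tested.

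Genes of focal adhesions and actomyosin, which link the matrix to the tension that YAP and TAZ read, had a median log2FC of 0.48, with 12 of 18 above 0. None was at an unadjusted p-value under 0.05 in edgeR's test of independent libraries. Leaving out Gli1+ replicate 1 gave a median of 0.082, Gli1- replicate 2 one of 0.21 and Gli1+ replicate 3 one of 0.25. The filamin gene *Flna* was at 2561, 253 and 2045 CPM in Gli1+ and 994, 97.1 and 944 CPM in Gli1- replicates 1, 2 and 3, so the libraries numbered 2 were the lowest and Gli1+ cells were higher within every number. Its log2FC was 1.26 (standard error 1.01), and with the replicate block 1.29 (standard error 0.25, adjusted p = 0.35 from edgeR). DESeq2 with the block called *Flna* (adjusted p = 0.00146), as did 2 of 19 alternatives in all. *Myh9*, which encodes a nonmuscle myosin, had a log2FC of 0.97 (standard error 0.85) and was higher in 3 of 3 pairs. Those of *Actn4* and *Tln1* were -0.005 and 0.089. The list had 0 genes whose libraries were all higher in Gli1+ cells (4.04% of all genes). It had 2 whose libraries were all lower (4.45% of all genes), named after their values were seen. *Pxn*, which encodes the adhesion protein paxillin, was at 184 ± 31.6 in Gli1+ and 274 ± 47.3 CPM in Gli1- cells (SD, n = 3 each), with a log2FC of -0.58 (standard error 0.39). *Lima1*, which encodes an actin-binding protein, was at 64.9 ± 18.6 and 95.0 ± 10.4 CPM (SD, n = 3 each), with a log2FC of -0.55 (standard error 0.38). Within pairs 6 genes of the list were higher (17.6% of all genes) and 3 lower (19.8%) in 3 of 3. Over all 5 lists, 0 of 85 tested genes were at an unadjusted p-value under 0.05 (3.47% of all genes). With the replicate block there were 11 (8.61% of all genes). On the adhesion and actomyosin list 4 (*Flna*, *Actn1*, *Myh9* and *Myh10*) were higher in Gli1+ cells (3.36% of all genes). Of the other YAP/TEAD targets, 2 (*Dock5* and *Tgfb2*) were higher and 3 (*Igfbp3*, *Gadd45a* and *Ccdc80*) lower (5.25% of all genes). Of the other mechanosensitive channels, 2 (*Kcnk2* and *Tmem63b*) were higher.

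**Figure D4:**
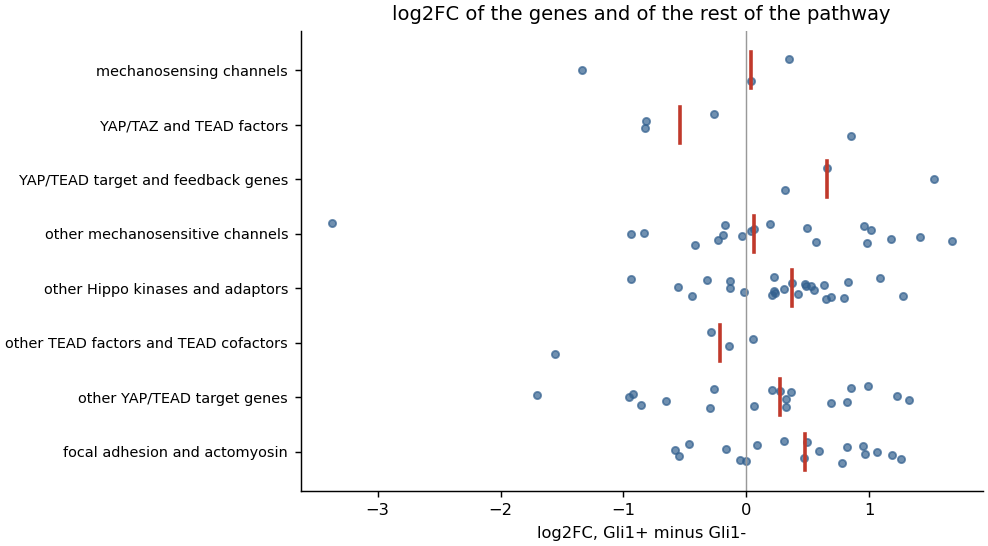
The log2FC (Gli1+ minus Gli1-) of every tested gene in the 3 groups of the 10 genes and the 5 lists of other pathway genes, with 1 point per gene and a red bar at the median. Medians lie between -0.54 and 0.66, and each list of more than 4 genes has points on both sides of 0.

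The largest difference of *Piezo1* was between replicate numbers and not between populations. Its mean log2 CPM in both libraries numbered 2 was 2.51 below that in the other 4 libraries (log2 difference -2.51), 5.68-fold, and only 1.93% of tested genes had a lower value. *Lats2* and *Tead1* were lower there too, 2.60-fold and 2.55-fold, as was *Amotl2*, 1.78-fold. *Tead3* and *Wwtr1* were higher, with log2 differences of 1.03 and 0.96, the former with the low Gli1+ replicate 1 among the other 4 libraries. Gene length moved with this contrast over all genes, the medians being 0.34 at 2 to 4 kb, -0.079 at 4 to 6 kb, -0.37 at 6 to 8 kb and -0.46 at 8 to 10 kb. *Piezo1* (9.94 kb), *Lats2* (6.97 kb), *Amotl2* (6.29 kb) and *Tead1* lay below the median of their length class, *Wwtr1* (4.78 kb) and *Tead3* (6.71 kb) above it, and *Trpv4* (4.08 kb), *Yap1* (9.26 kb) and *Piezo2* (14.6 kb) near it. *Ankrd1* (1.76 kb), with few counts, was at 0.58, below the median of 0.99 under 2 kb. The same libraries held the most chondrocyte markers, 22860 in Gli1+ and 30820 CPM in Gli1- cells, against 6933 to 8977 CPM in the other 4. The part of cell makeup in these differences was not tested. With the length trend of each library removed, the log2FC was -1.59 for *Piezo2* (standard error 0.37, unadjusted p = 0.00213) and 1.93 for *Ankrd1* (standard error 0.90, unadjusted p = 0.0625), and edgeR called neither.

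**Figure D5:**
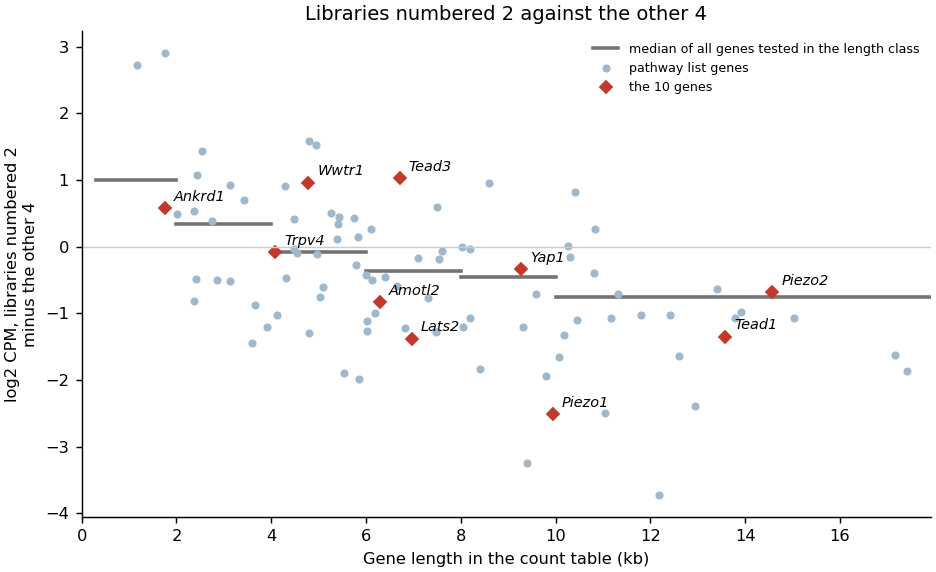
Mean log2 CPM in both libraries numbered 2 minus that in the other 4, against gene length in kb, for the 10 genes (red) and the other pathway genes (blue), with the median of all genes tested in each length class (grey lines). The medians fall from 0.99 to -0.76 with length, and *Piezo1* lies at -2.51.

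The profile of each gene over the 6 libraries, as log2 CPM relative to its mean, was also set against those of the other 9. *Trpv4* and *Amotl2* were each other's nearest, with a root mean square difference of 0.37 on the log2 scale, and so were *Tead1* and *Lats2* at 0.39. *Piezo1* was nearest to *Lats2* (0.61). In both libraries numbered 2, *Tead1*, *Lats2* and *Piezo1* were all below their means. *Tead3* was the most isolated, 1.24 from its nearest, *Wwtr1*. Its value was -2.99 in Gli1+ replicate 1 and 0.26 to 1.12 in the other libraries, so its distance rested largely on that library. The part of differences between libraries in these likenesses was not tested. Genes that vary little, such as *Yap1*, are near to many others by this measure.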

How the data were processed

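Poly-A RNA of sorted cells was sequenced by Novogene. The authors deposited 1 table of raw counts (whole reads of a gene), neither normalized nor pooled, with gene lengths and coordinates. HISAT2 2.0.5, featureCounts 1.5.0-p3 and mm10 are named in the submitters' processing notes, and the use of strand is not given in the sources used here. Of 54409 genes found in GENCODE M21 (GRCm38), 98.3% had the same coordinates. 

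Genes were filtered with filterByExpr (minimum count of 10), scaled by TMM and tested by the quasi-likelihood method of edgeR 4.0.16 in R 4.3.3, with the earlier form of the fit. P-values were adjusted by Benjamini-Hochberg over all 14801 genes. Log2 CPM used a prior count of 2. Totals per library were 17114101 to 18602482 counts. Relative to the mean of each population, the 2 libraries of a number correlated across genes at 0.223, 0.720 and 0.471 for numbers 1, 2 and 3. Gli1+ replicate 1 correlated more with Gli1- replicate 3 (0.274) than with its own number, and Gli1+ replicate 3 with Gli1- replicate 1 at 0.107. The paper names shared mice, but no source used here says that a number marks a mouse. The numbers were treated as pairs on these correlations, which are weak for number 1, and fits with the replicate number as a block were run.

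The 10 genes, the lists and the alternatives were chosen with earlier results of these data known. Named were *Gli1*, the 10 genes, the 4 most abundant of each pathway list and any at an unadjusted p-value under 0.05, and for markers the most abundant. Lists came from general knowledge of each pathway or cell type. Alternatives were other scalings, DESeq2 1.42.0, limma 3.58.1 (voom), other filters, the block, libraries left out, and the adjusted p-value alone. The newer edgeR fit and removal of length trends (lowess span of 0.3) were chosen after seeing the data. The tests were run on simulated counts as a check of the code. The limits set for that check applied only at a spread between libraries far below that of these data, so it does not measure power here.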

Additional observations from a re-analysis of the deposited data

How the results depend on the processing

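The log2FC values were recomputed under 19 alternatives, of which 3 were chosen after seeing the data. Of the 10 genes, *Piezo2*, *Trpv4*, *Yap1*, *Wwtr1*, *Tead3*, *Lats2* and *Ankrd1* kept the sign of their log2FC in all of them. *Ankrd1* was not tested at a minimum count of 30, and DESeq2 with the block gave it no adjusted p. *Piezo1* reversed without a filter on low counts (-0.028), with the length trend removed (-0.14) and without Gli1+ replicate 1 (-0.38), Gli1+ replicate 3 (-0.18) or Gli1- replicate 2 (-0.48), with 0.47 as the highest value of any library left out. *Tead1* reversed without Gli1+ replicate 1 (-0.17) and with both libraries of replicate 1 left out under the block (-0.003), with 1.22 at most. *Amotl2* reversed without Gli1+ replicate 3 (-0.053), with 0.62 at most. The cause was not tested.

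The number of all genes called was 0 in the reported fit and with the adjusted p-value alone. DESeq2 without the block called 30, no filter on low counts 267, DESeq2 with the replicate block 428 and edgeR with the block but no replicate 1 library 1201. The numbers of the 10 genes called in these fits were 0, 0, 1 and 2 (*Piezo2*, then *Piezo2* and *Wwtr1*). The last fit has 2 pairs only and also gave *Trpv4* and *Lats2* an adjusted p under 0.05 (0.0251 and 0.0412) at a |log2FC| under 1. Of the 10 genes, 1 was at an unadjusted p-value under 0.05 in the reported fit, 3 with the replicate block in edgeR, in limma-voom and with the length trend removed, 4 in DESeq2 with the block, 7 in the fit without both libraries of replicate 1, and 0 to 1 with each library left out.

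Of the pathway genes tested (85 in the reported fit, 93 without a filter, 86 without both libraries of replicate 1 and 86 to 87 with single libraries left out), 0 were at an unadjusted p-value under 0.05 in the reported fit, 1 with upper quartile scaling, limma-voom or the newer edgeR fit, 2 with the length trend removed, 3 in DESeq2 without the block, 7 without a filter, 11 with the replicate block in edgeR, 15 in DESeq2 or limma-voom with the block, 20 with the block and the length trend removed, 33 without both libraries of replicate 1, and 0 to 5 with each library left out. DESeq2 with the block also called *Gli1*, *Gadd45a* and *Flna*, and edgeR with the block and all 6 libraries called 0 genes. With 3 libraries against 3, a single-gene exact test cannot go below p = 0.1.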
